A study of Mus musculus with 6 samples.

Results

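Fibroblast growth factor (FGF) receptors and the genes of their negative feedback were compared in progenitor cells of limb muscle from embryos and from fetuses of the mouse. The set holds 10 genes, listed by name: the receptors Fgfr1 and Fgfr4, the inhibitors Spry1, Spry2, Spry4, Spred1 and Il17rd, the phosphatase Dusp6, and the transcription factors Etv4 and Etv5. All 10 were on the array, with 31 of the 44994 probe sets, among 18182 genes that could be named. Each gene is represented by its probe set with the highest mean over the 6 arrays. The measured cells carry the Tg:Pax7-nGFP transgene, a green fluorescent protein in the nucleus driven by Pax7, the gene of muscle progenitors and stem cells, on a C57BL/6:DBA2 background. They were sorted by their fluorescence after trypsin digestion of mouse limbs, at the embryonic stages E12.5 (3 arrays) and E17.5 (3 arrays). The groups differ in age, both carry the transgene, no untreated or transgene-free group was analysed here, and the labels do not say how many embryos went into a sample. The question asked of these genes is how their RNA in Pax7-expressing cells differs between the ages.

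FGF ligands bind receptor tyrosine kinases at the cell surface, and the activated receptor signals through the adaptor FRS2, Ras and the kinase ERK. ERK signalling induces its own brakes: Sprouty and Spred proteins act on the Ras and Raf steps, DUSP6 removes phosphate from ERK in the cytoplasm, and the membrane protein encoded by Il17rd, also called Sef, acts at the receptor and on ERK. The ETS factors encoded by Etv4 and Etv5 are induced by the same pathway, so that these RNAs are widely used as readouts of FGF activity in the limb bud. In muscle, Fgfr4 is a receptor typical of myogenic progenitors, and Spry1 is known from the return of satellite cells, the adult muscle stem cells, to quiescence.

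At E17.5 the receptor gene Fgfr4, the inhibitor gene Spry1 and the ETS factor gene Etv5 were higher than at E12.5, by 3.12-fold, 1.91-fold and 2.91-fold. None of the 10 genes was lower by the test. A gene was called where the adjusted p of limma, a linear model fitted over all 18182 genes with Benjamini-Hochberg adjustment, was under 0.05. By this rule 3 of the 10 genes rose, 0 fell and 7 were uncalled, against 16.9% of all genes called in either direction and 8.21% called higher (8.73% were called lower). The 10 genes were chosen with earlier results of these data known, so these counts are descriptive only. At an unadjusted p under 0.05 limma had 6 of the 10 genes higher and 0 lower. No share of all genes is given at this looser threshold, and the shares above, at an adjusted p, do not apply to it. Without E12.5 replicate A 6 genes were called higher, and without E17.5 replicate C 5 were, with 3329 and 3299 of all genes called in either direction. Without E12.5 replicate B or C 3 were called higher (2444 and 2121 of all genes called). Without E17.5 replicate A or B 2 were called higher (1840 and 1741 of all genes called). Fgfr4, Spry1 and Etv5 are among the 8 of the 10 genes with a mean signal of at least 6, and of all genes this bright 26.4% were called. The median difference of the 10 genes was 0.94, and that of all genes was 0.0033. In 6 of the 10 genes every E17.5 array lay above every E12.5 array, which held in this direction for 14.2% of all genes. These 6 are among the 8 with a mean of at least 6, and it held for 1952 of the 8758 genes this bright.

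Values are log2 signals after GCRMA, a method that corrects background, normalizes between arrays and summarises probes. Values under 4 lie in its dense low range, where specific signal cannot be told from background. Each difference is the E17.5 mean less the E12.5 mean of these log2 values, given with limma's standard error (SE). Values of one gene were not set against those of another, since probes differ in efficiency. Array medians ran from 3.38 to 3.47, and 33.7% to 34.8% of probe sets on an array reached 6. E17.5 replicates A and B stood apart in their likeness: the SD of their difference over the 8758 genes whose mean reached 6 was 0.152, while the other pairs of arrays of 1 age had 0.412 to 0.551. Over the 10 genes they differed by 0.074 on average, against 0.427 to 0.669 in the other pairs. They may not be independent samples, so the fit was repeated on their average, entered as 1 sample. With this average 2 of the 10 genes were called, Fgfr4 and Spry1. Although the labels call the arrays biological replicates, they do not say whether litters were separate, and the p-values measure the spread between these arrays only. The design, with 3 arrays against 3, would allow an exact permutation test of a single gene no p below 0.1.

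**Figure D1:**
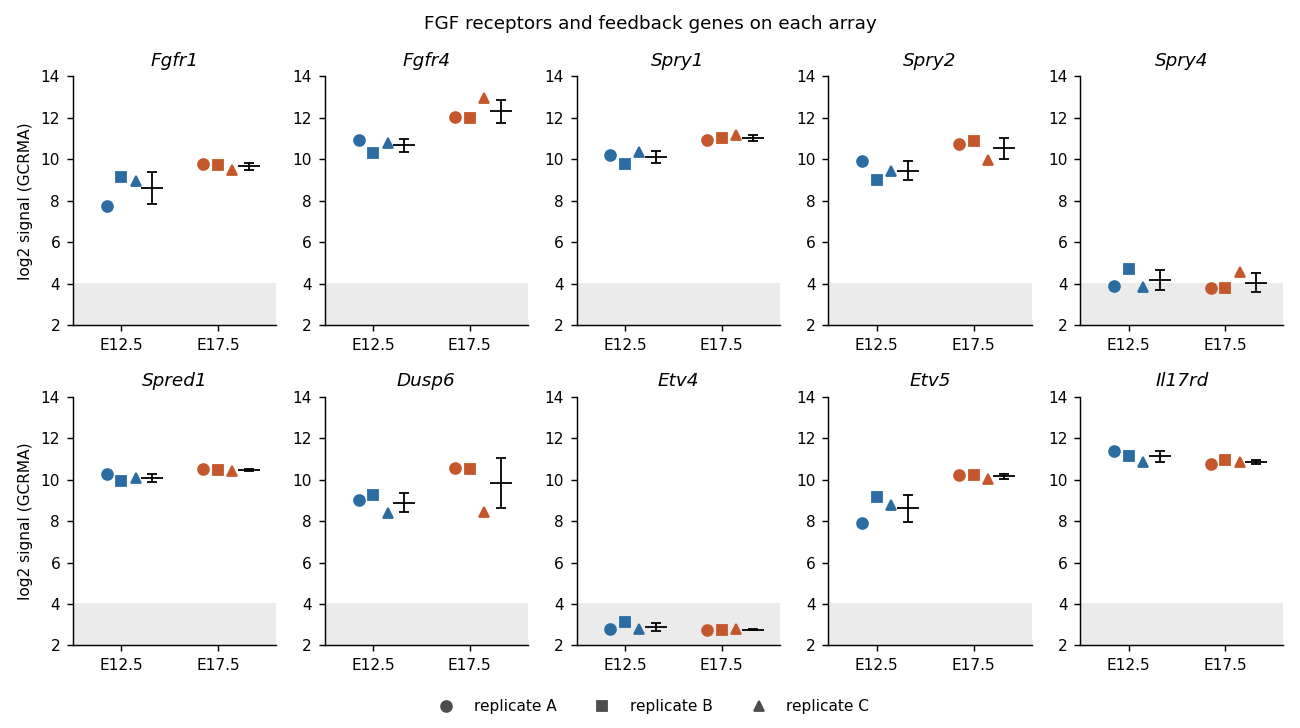
Log2 signal of each of the 10 genes (vertical axis, GCRMA) on the 6 arrays, by age (horizontal axis, blue for E12.5, orange for E17.5) and replicate (symbol). Black bars are the mean and SD of 3 arrays, and the grey band marks values under 4. Fgfr4, Spry1 and Etv5 are separated by age, Dusp6 of E17.5 replicate C (8.42) lies far below replicates A and B, and Etv4 stays inside the band.

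The stretches before the annotated starts of the 3 risen genes are shown because ETS factors, which include ETV5, bind DNA with a GGAA core, so a reader can see where these letters lie. Each run is the 250 bases upstream of the start, read 5′ to 3′ on the strand of the gene, from RefSeq on GRCm38.p6. Capitals mark GGAA, or TTCC where the core is on the other strand. Etv5 has 2 annotated starts in that table, an outer and an inner one.
Fgfr4, chr13:55152568-55152817, plus strand: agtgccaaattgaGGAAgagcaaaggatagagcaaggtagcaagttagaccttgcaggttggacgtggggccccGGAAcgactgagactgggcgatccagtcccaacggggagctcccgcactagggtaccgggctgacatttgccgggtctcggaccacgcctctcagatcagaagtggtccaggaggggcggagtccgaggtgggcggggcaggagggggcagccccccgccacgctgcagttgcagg
Spry1, chr3:37639697-37639946, plus strand: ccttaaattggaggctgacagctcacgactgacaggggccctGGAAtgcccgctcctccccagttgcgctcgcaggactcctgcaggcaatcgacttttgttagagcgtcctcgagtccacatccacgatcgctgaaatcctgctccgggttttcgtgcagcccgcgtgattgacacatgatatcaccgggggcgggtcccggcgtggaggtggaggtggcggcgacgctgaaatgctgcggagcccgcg
Etv5 outer start, chr16:22439571-22439820, minus strand: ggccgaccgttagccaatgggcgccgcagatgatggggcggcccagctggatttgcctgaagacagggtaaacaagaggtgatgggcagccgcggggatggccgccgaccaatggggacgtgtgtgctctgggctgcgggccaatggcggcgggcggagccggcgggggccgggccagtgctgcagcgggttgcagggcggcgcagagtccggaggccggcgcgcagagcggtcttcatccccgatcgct
Etv5 inner start, chr16:22438369-22438618, minus strand: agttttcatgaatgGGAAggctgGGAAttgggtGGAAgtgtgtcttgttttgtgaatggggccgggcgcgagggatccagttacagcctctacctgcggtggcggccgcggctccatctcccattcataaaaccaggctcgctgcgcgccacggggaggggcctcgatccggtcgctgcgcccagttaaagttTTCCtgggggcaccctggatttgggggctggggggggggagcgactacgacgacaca

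The Fgfr4 stretch held 2 GGAA cores, the Spry1 stretch 1, the outer Etv5 stretch 0 and the inner one 4. In all, 7 of the 10 genes had an entry in the table, with 8 stretches, and the counts were 3 for Spry2, 4 for Spred1, 4 for Il17rd and 6 for Dusp6, whose RNA varied most among the E17.5 arrays. At least 1 core on either strand was present in 93.4% of 32851 stretches of the same length, with a median of 3. The longer match CCGGAA, which contains the core, was present in 1 of the 8 stretches, that of Fgfr4, and in 12% of all stretches. The letters CATTCC, the M-CAT element bound by TEAD factors, were found in the Spry1 stretch alone among the 8, on the minus strand where they overlap the GGAA core, and in 12.6% of all. An E-box, CANNTG, the element of myogenic bHLH factors, was found 2 times each in the Fgfr4, Spry1 and outer Etv5 stretches, 1 time each in those of Spry2, Dusp6 and Il17rd, 0 times in those of Spred1 and the inner Etv5 start, and in 66.2% of all stretches. These matches describe the letters only, and no binding was measured.

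Among the receptors, Fgfr4 stood at 10.92, 10.32 and 10.81 in E12.5 replicates A, B and C and at 12.03, 11.98 and 12.97 in E17.5 replicates A, B and C. The ages did not overlap, and the highest value was in E17.5 replicate C. The mean rose from 10.68 ± 0.32 to 12.33 ± 0.56 (SD, n = 3), a difference of 1.64 (SE 0.30, 95% interval 0.93 to 2.35, adjusted p = 0.0114 by limma). With E17.5 A and B averaged the difference was 1.80 (adjusted p = 0.021). Fgfr4 had 5 probe sets. In a fit over all 44994 probe sets, of which 8.89% were called, the 3 with a mean of at least 4 were called higher, at 1.64, 2.04 and 1.55, while the other 2 stayed under 4 on every array. The gene therefore showed the same direction in each probe set that carried signal.

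Fgfr1, the receptor gene expressed broadly in mesenchyme and muscle, stood at 7.75, 9.17 and 8.97 at E12.5 and at 9.79, 9.73 and 9.48 at E17.5. Replicate A of E12.5 was the low array, and the gap between the ages was 0.31. The difference was 1.04 (SE 0.37, 95% interval 0.17 to 1.91) and was not called (adjusted p = 0.112 by limma). Without E12.5 replicate A it was smaller, 0.60, but called (adjusted p = 0.0399). Its brightest probe set carries a suffix for probes that can match several transcripts, and the other 2 differed by 0.69 and 0.71, neither of them called (adjusted p = 0.148 and 0.689 over probe sets).

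Among the inhibitors, Spry1 was at 10.20, 9.78 and 10.37 in E12.5 replicates A, B and C and at 10.92, 11.04 and 11.20 at E17.5. All E17.5 arrays lay above all E12.5 arrays. The difference was 0.94 (SE 0.17, 95% interval 0.53 to 1.34, adjusted p = 0.0117 by limma), and 0.97 (adjusted p = 0.037) with E17.5 A and B averaged. Spry1 had a single probe set among those named by 1 symbol, so no second measurement of it is given.

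Spry2, the paralogue of Spry1, was at 9.94, 9.00 and 9.46 at E12.5 and at 10.75, 10.91 and 9.96 at E17.5. The lowest E17.5 array, replicate C, lay 0.02 above the highest E12.5 array. Its difference of 1.07 (SE 0.32, 95% interval 0.31 to 1.84) was not called (adjusted p = 0.0688 by limma). It was called without E17.5 replicate C (1.36, adjusted p = 0.0275), with replicate A of E12.5 left out (1.31, adjusted p = 0.0418) and when only genes with a mean of at least 4 were tested (adjusted p = 0.034). Its second probe set stayed under 4.

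Spry4 was close to the background range, at 3.92, 4.73 and 3.87 at E12.5 and at 3.80, 3.78 and 4.59 at E17.5. The ages overlapped, and 1 array of each age was above 4. The difference was -0.12 (SE 0.33, 95% interval -0.90 to 0.66, adjusted p = 0.915 by limma), and its sign changed in 5 of 18 alternatives. The other 3 of its 4 probe sets stayed under 4 on all arrays. Little can be said of this gene at this signal.

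Spred1, which encodes a Sprouty-related inhibitor of Raf activation, was at 10.29, 9.91 and 10.06 at E12.5 and at 10.53, 10.47 and 10.40 at E17.5. The ages were separated by 0.11. The difference was 0.38 (SE 0.12, 95% interval 0.084 to 0.68) and was not called (adjusted p = 0.09 by limma), though it was called when replicate A of E12.5 was left out (adjusted p = 0.0264). Spred1 had 8 probe sets, 6 of them with a mean of at least 4. Their differences ran from -0.027 to 1.01, none was called, and the largest came from a probe set whose mean signal was 8.31. The probe sets of this gene thus gave differences of unequal size.

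Il17rd was at 11.37, 11.14 and 10.84 at E12.5 and at 10.77, 10.95 and 10.83 at E17.5. The ages overlapped. It is the only one of the 8 brighter genes whose mean was lower at E17.5, by a difference of -0.27 (SE 0.15, 95% interval -0.62 to 0.088, adjusted p = 0.326 by limma) that was not called. That interval reaches from a fall of 0.62 to a rise of 0.088, so a 2-fold change in either direction lies outside it. The second probe set of Il17rd had a mean under 4.

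Dusp6, the ERK phosphatase gene, was at 9.00, 9.27 and 8.41 in E12.5 replicates A, B and C and at 10.57, 10.51 and 8.42 in E17.5 replicates A, B and C. Replicate C of E17.5 lay 2.12 below the mean of A and B and inside the E12.5 range. The difference was 0.94 (SE 0.59, 95% interval -0.47 to 2.35) and was not called (adjusted p = 0.397 by limma). Without E17.5 replicate C it was 1.65 (adjusted p = 0.0129), which rests on A and B, the pair that may not be independent, and with A and B averaged it was 0.59 (adjusted p = 0.709). Dusp6 had the largest range within an age among the 10 genes, 2.15 at E17.5. It has 1 probe set.

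**Figure D2:**
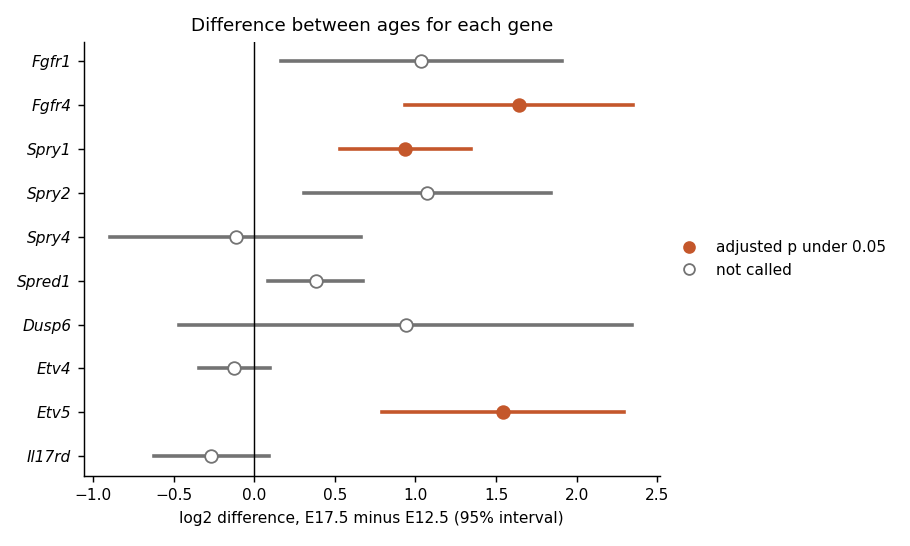
Log2 difference between ages (horizontal axis, E17.5 minus E12.5) for each of the 10 genes, with 95% intervals from limma. Filled orange points are called at an adjusted p under 0.05 (Fgfr4, Spry1 and Etv5), open grey points are not. The interval of Dusp6 is the widest, and those of Spry4, Dusp6, Etv4 and Il17rd include 0.

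Among the ETS factors, Etv5 was at 7.89, 9.18 and 8.77 in E12.5 replicates A, B and C and at 10.24, 10.22 and 10.01 at E17.5. The lowest E17.5 array lay 0.83 above the highest E12.5 array. The mean rose from 8.61 ± 0.66 to 10.16 ± 0.13 (SD, n = 3), a difference of 1.54 (SE 0.31, 95% interval 0.79 to 2.29, adjusted p = 0.018 by limma). This call was lost with E17.5 A and B averaged (1.51, adjusted p = 0.0617), without E17.5 replicate A (adjusted p = 0.0612) or B (adjusted p = 0.0649), with values under 4 raised to 4 (adjusted p = 0.0538), and with the mean of its 3 probe sets (0.82, adjusted p = 0.153). Its second probe set differed by 0.88 and was not called, with 2.74 in E12.5 replicate A and 4.48 to 5.17 on the other arrays, and the third stayed under 4.

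Etv4, in contrast, stayed under 4 on every array. It was at 2.78, 3.11 and 2.79 at E12.5 and at 2.77, 2.76 and 2.78 at E17.5. Its other probe set lay between 2.23 and 2.26. No fold is given, since both ages lie in the background range. Of the 2 ETS factors of this set, Etv5 thus carried measurable signal at both ages and Etv4 at neither.

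**Figure D3:**
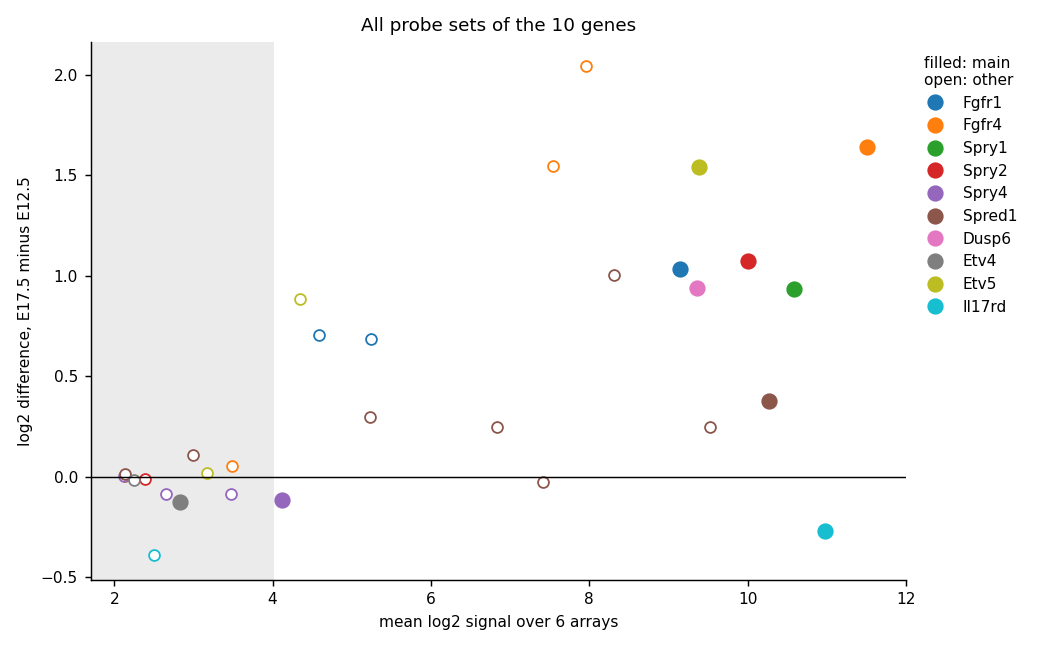
Each of the 31 probe sets of the 10 genes by its mean log2 signal over 6 arrays (horizontal axis) and its log2 difference, E17.5 minus E12.5 (vertical axis). Filled points are the main probe set of a gene, open points its other ones, and the grey band marks means under 4. The probe sets in the band lie between -0.39 (Il17rd) and 0.11 (Spred1), while the 3 of Fgfr4 to the right of it lie between 1.55 and 2.04.

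Within an age, the 10 genes did not order the arrays alike. At E12.5, Fgfr4, Spry1, Spry2 and Spred1 were lowest in replicate B, while Fgfr1 and Etv5 were lowest in replicate A. Marker lists of the cell types differed between these arrays too. The log2 of the summed signal of 7 muscle progenitor markers was 14.51 in E12.5 B against 14.89 and 14.95 in A and C. For 11 markers of limb mesenchyme and connective tissue it was 14.83 in B against 13.45 and 13.69. For 7 muscle differentiation markers it was 12.44 in A, 13.75 in B and 13.26 in C, the same order as for Fgfr1 and Etv5. The mesenchyme sum and that of 7 endothelial markers (6.65, 8.04 and 6.72) had this order as well. At E17.5 Fgfr1 and Etv5 were highest in A and lowest in C. The differentiation sum ran the opposite way there, at 14.76, 14.84 and 15.07 in A, B and C. The mesenchyme sum (14.88, 14.90 and 14.53) and the endothelial sum (10.21, 10.42 and 10.13) were highest in B and lowest in C. The part of these markers in the values of the 10 genes was not tested.

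Of the labelled cell type, all 7 muscle progenitor markers were above 4 on every array. Of these Pax7 was called higher, from 11.46 ± 0.28 at E12.5 to 12.37 ± 0.15 at E17.5 (SD, n = 3), Pax3 was called lower, from 8.67, 6.80 and 8.34 to 5.29, 5.61 and 5.24 (difference -2.56, adjusted p = 0.0142 by limma), and 5 had no call. Between ages, the summed signal of the muscle progenitor list ranged from 14.51 to 14.95 and from 14.72 to 15.14 at E17.5, that of muscle differentiation from 12.44 to 13.75 and from 14.76 to 15.07, and that of mesenchyme from 13.45 to 14.83 and from 14.53 to 14.90. The mesenchyme sum is carried by the collagen genes Col1a2 and Col3a1, which had no call. Of the 11 mesenchyme markers 8 had a lower mean at E17.5, 4 were called lower (Prrx1, Prrx2, Twist2 and Pdgfra) and 1, Col1a1, was called higher, and the mean log2 signal of the list went from 7.54, 8.80 and 7.17 in E12.5 A, B and C to 7.16, 7.18 and 6.59 at E17.5. Markers of other cell types gave signal too. Red blood cell markers (6 measured) stood at 13.03 to 14.94 at E12.5 and at 5.79 to 6.39 at E17.5, a sum carried at E12.5 by the embryonic globin gene Hbb-y (13.02 to 14.89). The embryonic globin genes Hbb-y, Hbb-bh1 and Hba-x were called lower, and the other 3 had no call. Of these, Alas2 at 0.69 and Epor at 0.33 went in the other direction. Hba-a1 and Epor were under 4 on all arrays, so the difference of Epor lies in the background range. Cartilage markers (6) stood at 11.76 to 12.57 and 8.15 to 9.77, a sum carried at E12.5 by Col9a1 (11.51 to 12.12). Col9a1 was called lower and the other 5 had no call. Means were lower at E17.5 for 5 of the 6, Acan went the other way (0.37), and Snorc was under 4 on all arrays. Limb ectoderm markers (8) stood at 8.70 to 9.61 and 7.42 to 7.56. Of these 8, 3 were called lower (Epcam, Trp63 and Cdh1) and 5 had no call, among them Krt14 and Krt5. Krt8 and Fgf8 were under 4 on all arrays. Endothelial markers (7) stood at 6.65 to 8.04 and 10.13 to 10.42, where Tek alone carries the higher level. The other 6 endothelial markers had a lower mean at E17.5 and no call, among them Kdr (-1.37), Esam (-0.93), Emcn (-0.75) and Cdh5 (-0.35), and Pecam1 and Tie1 were under 4 on all arrays. White blood cell markers (6) stood at 5.75 to 7.21 and 7.18 to 7.52, with Ptprc, Tyrobp and Fcer1g under 4 on all arrays. Of these 6, 2 were called higher, and 4 had a lower mean at E17.5 and no call. Schwann cell and neural crest markers (4) stood at 12.51 to 13.10 and 9.78 to 10.14, with Sox10 and Foxd3 under 4 on all arrays. That sum was carried by Erbb3 (12.30 to 12.93 and 9.64 to 10.02). In sorted bulk RNA, fewer cells of a type and less RNA per cell cannot be told apart, and the part of these shifts in the differences of the 10 genes was not tested.

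Around these genes the pathway was described with 7 further lists, of which 94 of 101 genes were measured. Among these 94, rises were called for 18 and falls for 14, leaving 62 without a call, with a median difference of 0.0017. With E17.5 A and B averaged 11 rose and 12 fell, without E17.5 replicate A 10 rose, and without E17.5 replicate B 9 rose. The share called was 34%, against 16.9% of all genes. As the lists were chosen with earlier results of these data known, this share describes them and tests nothing. 50 of the 94 had a mean of at least 6.

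Of 22 ligand genes 18 had a mean under 4, and 4 rose, 3 fell and 15 had no call (2 rose and 2 fell with E17.5 A and B averaged). Without E12.5 replicate C or E17.5 replicate A 2 ligand genes rose, and without E17.5 replicate B 1 rose. Of the called ligand genes Fgf16 and Fgf6 lay under 4 on all 6 arrays, in the background range. The largest change was the fall of Fgf9, a secreted ligand, from 11.29, 10.56 and 10.91 at E12.5 to 5.92, 5.52 and 4.92 at E17.5 (difference -5.47, SE 0.30, adjusted p = 0.000133 by limma). Its second probe set was lower too, by 4.60, but its E17.5 values (3.81, 3.54 and 2.74) lie in the background range, so the size of that fall is uncertain. Fgf7, a ligand of FGFR2 made by mesenchyme, rose by 2.34 from values of 3.19 to 4.87, and that call was lost without E12.5 replicate C (adjusted p = 0.0626) or E17.5 replicate B (adjusted p = 0.0656). Fgf13 and Fgf12, members of the intracellular subfamily that does not act through these receptors, rose by 1.43 and 1.63, the latter not called with E17.5 A and B averaged (adjusted p = 0.0636) or without any 1 of the E17.5 arrays (adjusted p = 0.0555 to 0.0658). Fgf8 and Fgf10, the ligands of the limb ridge and of limb mesenchyme, stayed under 4 on all arrays.

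Of 10 other receptor and coreceptor genes 4 fell, 0 rose and 6 were not called (3 fell with E17.5 A and B averaged). At an unadjusted p under 0.05 in limma 4 were lower and 0 higher, with no share of all genes given beside it. Fgfr2 fell from 6.05, 7.56 and 4.91 to 3.56, 3.20 and 3.20 (difference -2.85, SE 0.63, adjusted p = 0.0236 by limma), which put it under 4 on each E17.5 array. That call was lost with A and B averaged (adjusted p = 0.0675), without E12.5 replicate A or any 1 of the E17.5 arrays (adjusted p = 0.0514 to 0.0801), with values under 4 raised to 4 (-2.17, adjusted p = 0.128) and with the probe sets that can match several transcripts left out (-0.94, adjusted p = 0.233). Fgfr3 was at 6.40 to 7.67 and at 5.49 to 6.38 and was not called (difference -0.74, adjusted p = 0.368 by limma). Fgfrl1, a receptor-like gene without a kinase domain, fell by 0.85 (adjusted p = 0.0541 with the probe sets that can match several transcripts left out), and Flrt3 and Flrt2, which encode membrane proteins that bind FGF receptors, were lower (-2.32 and -1.58). So Fgfr4 was called higher while Fgfr2 and Fgfrl1 were called lower, and Fgfr1 and Fgfr3 were not called.

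A further list of 16 held Sprouty, Spred and phosphatase genes and also Lrig1, Errfi1 and Tesk1. The substrates of these phosphatases were not examined, so the counts below are not counts of ERK feedback. The test called 6 higher (Dusp1, Dusp8, Dusp10, Dusp16, Lrig1 and Errfi1) and 1 lower (Dusp9), and left 9 uncalled. The Sprouty and Spred genes of this list were not called. On the average of E17.5 A and B 4 were higher and 1 lower. With 1 array left out 3 to 6 were higher and 1 to 2 lower. The fewest rises came without E17.5 B and the 2 falls without E12.5 A. Dusp9, an ERK phosphatase gene, fell from 8.29, 8.45 and 8.10 to 3.32, 2.96 and 3.29 (adjusted p = 7.6e-05 by limma). As its E17.5 values lie in the background range, the difference is given with values under 4 raised to 4, as a bound: -4.28 or further from 0 (adjusted p = 0.000556). Its other 2 probe sets were lower as well. Dusp8, under 4 on each E12.5 array, rose to 6.38, 6.82 and 7.11, a difference of at least 2.77 by the same bound (adjusted p = 0.00212 by limma), and Dusp1, an early response gene of the same family that acts in the nucleus, rose by 2.59. Like Dusp6, Dusp1 was lower in E17.5 replicate C (10.95) than in A and B (12.06 and 12.13), but above all E12.5 arrays. Dusp10 (1.96) showed the same order at E17.5, 7.51, 7.30 and 6.19, and its call was lost with A and B averaged (adjusted p = 0.127) and when replicate A or B of either age was left out (adjusted p = 0.0798 to 0.133). Spred2 and Dusp4 were not called, at -0.023 and 0.057 (adjusted p = 0.957 and 0.928 by limma), and Spry3 was under 4 at E17.5. Dusp7 was lower on every E17.5 array than on any E12.5 array but was not called (-1.46, adjusted p = 0.108 by limma). Dusp5 (-0.13), Dusp2 (0.76) and Dusp14 (0.30) had no call either, the last 2 under 4 on all arrays.

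Among the relays within the cell, of 12 adaptor genes 1 rose and 1 fell: Gab1 rose by 0.60 (adjusted p = 0.0359 by limma, 0.074 on the average of E17.5 A and B, and 0.0634 to 0.122 without any 1 array other than E17.5 C) and Plcg1, the phospholipase gene, fell by 0.65 (-0.21 with the mean of its probe sets, adjusted p = 0.371). With 1 array left out 0 to 2 adaptor genes rose and 1 to 2 fell, with 0 rises without B or C of E12.5 or A or B of E17.5, 2 rises without E12.5 A and 2 falls without E17.5 C. Of 12 Ras and MAP kinase genes 2 rose and 0 fell, Rras by 2.25 and Map2k1, the kinase gene directly above ERK, by 0.79. The counts were the same at an unadjusted p under 0.05 in limma, again with no share of all genes given. Of 8 other ETS factor genes Elk4 rose by 0.98 (0.26 with the mean of its probe sets, adjusted p = 0.0896), Gabpa by 0.33 (adjusted p = 0.0357 by limma, 0.147 with A and B averaged, and 0.107 to 0.17 when B or C of E12.5, or A or B of E17.5, was left out), and Elk3 fell by 1.56. In these same 4 settings 1 ETS factor gene rose, and without E17.5 replicate C 2 fell.

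Other receptor tyrosine kinases that use the same cascade were divided, with 3 of 14 higher, 4 lower and 7 not called (2 and 4 on the average of E17.5 A and B, and 1 and 4 without E17.5 replicate A). Tek rose by 4.88, Egfr by 2.72 (adjusted p = 0.0951 with A and B averaged, and 0.0544 to 0.101 without any 1 array other than E12.5 B) and Musk, of the neuromuscular junction, by 1.39 (adjusted p = 0.057 without E17.5 replicate A). Pdgfrb fell by 3.84, Pdgfra fell by 3.68 and Erbb3 fell by 2.80. Both Pdgfra and Pdgfrb are genes of mesenchymal cells. Pdgfra was highest in E12.5 replicate B (11.42), the array with the highest mesenchyme sum of its age, a list that Pdgfra itself belongs to. The call of Pdgfra was lost when A or B of E12.5, or B or C of E17.5, was left out (adjusted p = 0.0536 to 0.0795). Met, the receptor of migrating muscle progenitors, was at 12.03 to 13.03 and 12.06 to 12.10 and was not called (-0.53, adjusted p = 0.223 by limma). Without E12.5 replicate B its difference was -0.82 (adjusted p = 0.0082).

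Further settings ended some calls of these pathway genes. Raising values under 4 to 4 ended those of Fgf12, Gab1, Dusp10, Egfr and Pdgfra (adjusted p = 0.0535 to 0.0878 by limma), and the mean of probe sets those of Fgfr2, Gab1, Gabpa and Pdgfra (adjusted p = 0.0502 to 0.119). A variance prior without trend ended those of Fgfr2, Dusp10, Egfr and Pdgfra (adjusted p = 0.0522 to 0.0717), and a robust prior those of Gabpa and Pdgfra (adjusted p = 0.0595 and 0.052). The replicate block ended those of Gab1, Dusp10, Gabpa and Egfr (adjusted p = 0.0559 to 0.127), quantile normalization those of Dusp10 and Pdgfra (adjusted p = 0.0518 and 0.0529), and centring that of Dusp10 (adjusted p = 0.0505).

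**Figure D4:**
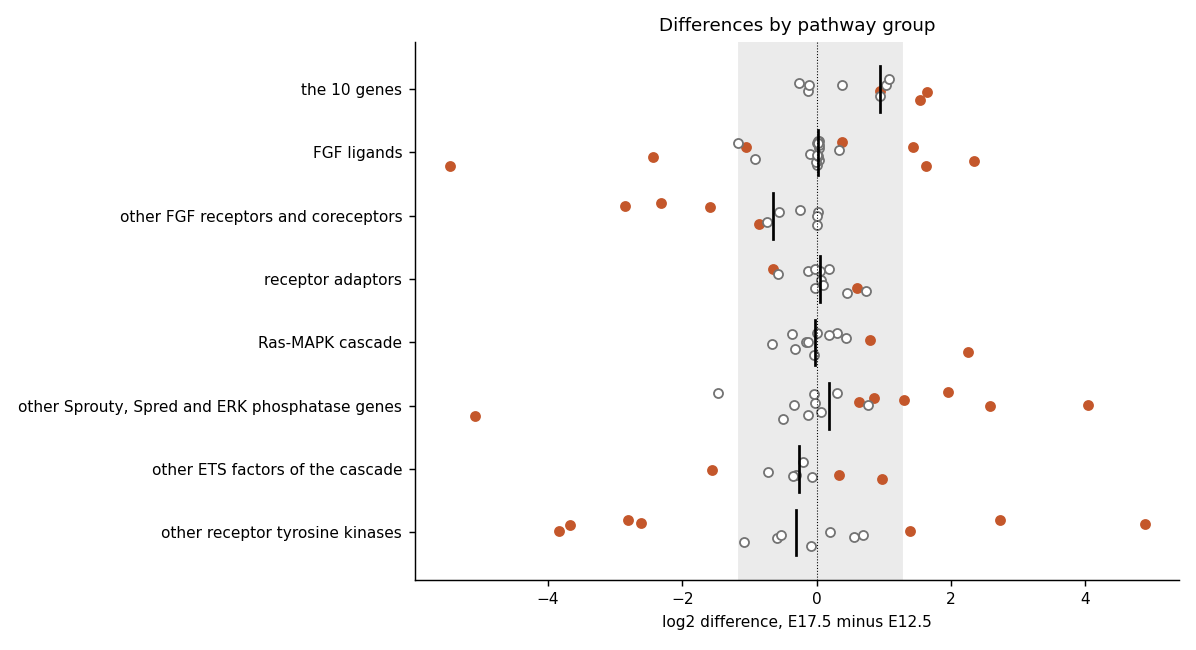
Log2 difference between ages (horizontal axis, E17.5 minus E12.5) of the 10 genes and of each measured gene of the 7 further lists, 1 point a gene. Filled orange points are called at an adjusted p under 0.05, open grey points are not, black bars are medians, and the grey band runs from the 5th to the 95th percentile of all 18182 genes (-1.16 to 1.27). Fgf9 and Dusp9 are the points farthest to the left and Tek the farthest to the right. The row named for ERK phosphatase genes holds phosphatase genes whose substrates were not examined.

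Genes with the profile most like that of a risen gene were sought among genes with a mean of at least 6, by the root mean square difference of values centred on each gene's mean, over the 6 arrays. For Fgfr4 these were Blvrb (0.089), Enox2 (0.15) and Tpd52 (0.16), which were likewise highest in E17.5 replicate C. For Spry1 they were Tarsl2 (0.089), Dtna (0.091) and Snhg12 (0.097). For Etv5 they were Ccdc134 (0.077), Pdlim4 (0.099) and Vim (0.13), all lowest in E12.5 replicate A. The points are 6 arrays in 2 ages, so any gene with a similar age difference is close, and these names describe likeness only.

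**Figure D5:**
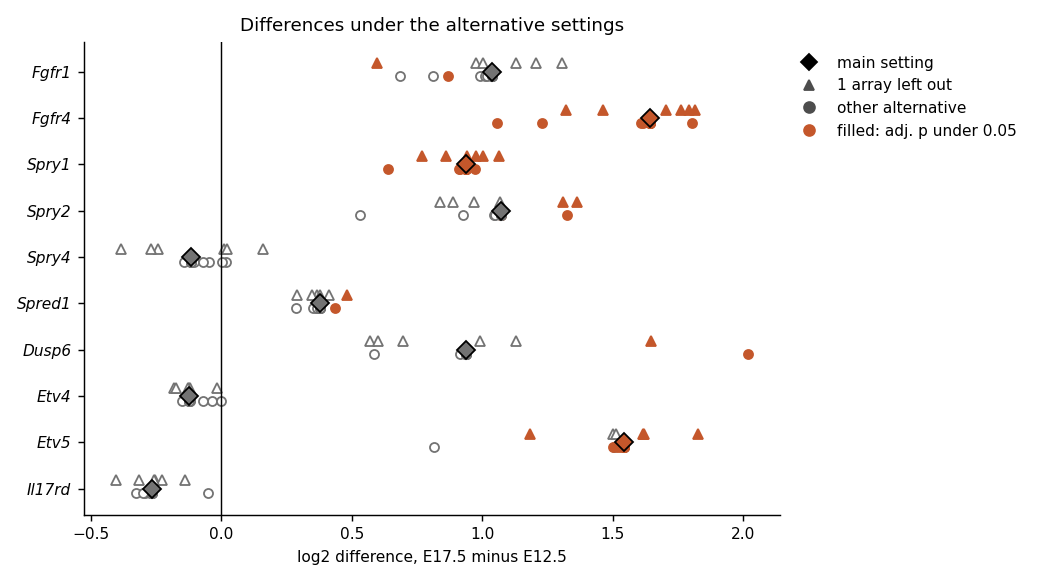
Log2 difference between ages (horizontal axis, E17.5 minus E12.5) of the 10 genes in the main setting (diamonds), with 1 array left out (triangles) and under the other alternatives (circles). Orange marks an adjusted p under 0.05. Fgfr4 and Spry1 are orange throughout, Etv5 is grey in 5 of the alternatives, and the values of Spry4 lie on either side of 0.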

How the data were processed

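The sorted cells' RNA was hybridised to 6 Affymetrix arrays of 1 colour. Per the labels' protocols, 100 ng of total RNA was amplified from the 3′ end in a two-step protocol and labelled with biotin, so signals depend on probe position. Per the submitters' processing notes the authors used GCRMA (its version is not stated in the sources used here), and the deposited table holds a log2 signal for each probe set and array. Its low range holds little specific signal, and the array count limits the precision.

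Probe sets were named by the platform annotation, and symbols were updated by entrez ID through the RefSeq list of GRCm38.p6, used for names. Of 44994 probe sets 34909 had 1 symbol (34705 matched), 931 had several and 9154 were not named. The ages were compared by limma 3.58.1 (lmFit, eBayes with trend; R 4.3.3) over 18182 genes, with no filter, and Benjamini-Hochberg adjustment at 0.05. The 10 genes and all lists were chosen with earlier results of these data known. The rule for names takes up to 3 risen and 3 fallen called genes per list whose higher age mean is at least 6, 10 genes whatever their result, and 3 like genes per called gene. Of these 10, Etv1 was not analysed here. Further genes named beside a list are its markers. On simulated data (10 runs, 18182 genes, E17.5 against E12.5 with 200 genes changed) the fit called 11.4% of those changed 1.5-fold, 38.8% of those changed 2-fold, 81.8% of 4-fold and 93% of 8-fold, and 5.7% of calls were false. In the data 3080 genes were called. The share found depends on how many genes change, so these shares hold for the simulated setting only. Alternatives were other variance priors, array weights, probe set rules, filters at 4 and 6, a floor at 4, quantile normalization, centring, a block for the replicate letter, the average of E17.5 A and B, a threshold of 0.01 and leaving out each array. Figures were drawn with matplotlib 3.10.9.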

Additional observations from a re-analysis of the deposited data

How the results depend on the processing

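Of 187 recomputed differences of the 10 genes, 163 kept their direction and their side of the threshold, 8 fell below it, 11 passed it and 5 changed sign. The sign changes were those of Spry4, at 0.0033 with quantile normalization, 0.017 with the average of E17.5 A and B, and between -0.38 and 0.16 with 1 array left out (0.16 without E12.5 B, 0.012 and 0.022 without E17.5 A or B). With array weights, which lean on E12.5 C and E17.5 A and B (weights 4.80, 4.98 and 3.24), 7 of the 10 genes were called, all higher, as were 54 pathway genes (28 lower) and 8424 of all genes. On the average of E17.5 A and B 11 pathway genes were higher and 1846 of all genes were called. At a threshold of 0.01 0 of the 10 genes were called by limma, against 18 pathway genes (8 higher) and 1542 of all genes. At this threshold the calls of Fgfr4, Spry1 and Etv5 were lost. The 6 of the 10 genes higher at an unadjusted p under 0.05 in limma have no share of all genes beside them. Leaving out 1 array gave 2 to 6 of the 10 genes called, all higher, 20 to 31 pathway genes (9 to 18 higher) and 1741 to 3329 of all genes.

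Replicate letters are not stated to pair the ages, and deviations of same-lettered arrays correlated at -0.38, 0.25 and -0.071 for A, B and C, with none of the letters closest to its own partner. With the replicate block 3 of the 10 genes were called, as without it, 26 pathway genes and 2105 of all genes. The cause of these changes was not tested. Signal over background limits Etv4 and Spry4, whose values lie in or near the low range.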
